A study of Arabidopsis thaliana with 15 samples.

Results

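The genes described here are 10 of the 32548 genes in the deposited expression table and were chosen by name: the replication helicase subunits MCM2, MCM3, MCM4, MCM5, MCM6 and MCM7, the sliding clamp genes PCNA1 and PCNA2, and the licensing factors CDC6 and CDT1A. Transcripts were measured by RNA sequencing in whole Arabidopsis thaliana seedlings of ecotype Col-0, 11 days old, from plates of MS (Murashige and Skoog) medium kept at 22 °C with 16 h of light and 8 h of dark. There were 5 groups of 3 libraries. Col-0_1 and Col-0_2 were wild-type sets. The group wrky-qm was homozygous mutant for WRKY7, WRKY11, WRKY17, WRKY21 and WRKY39 (wrky7-/-11-/-17-/-21-/-39-/-), wrky-qm_15_hz carried those 5 mutations and was heterozygous for a WRKY15 mutation (wrky15+/-), and obe1-2 was homozygous for mutations of OBE1 and OBE2 (obe1-/- obe2-/-). WRKY genes encode DNA-binding transcription factors, OBE1 and OBE2 encode proteins with a PHD finger, and the series title names a WRKY and PHD protein complex that represses stress-responsive genes. The labels do not state how the heterozygous seedlings were selected, which wild-type set belongs to which mutant, or that replicates came from separate cultures, so p-values reflect only the variation among the libraries of a group, part of which may be technical.

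A eukaryotic cell prepares its DNA for copying by licensing. The origin recognition complex marks the start sites, CDC6 and CDT1 load the ring-shaped MCM2 to MCM7 complex there, and this complex is the core of the helicase that later unwinds the DNA. PCNA is the ring that holds DNA polymerases on their template. In a plant seedling these genes are expressed mainly where cells divide or copy their genome without dividing, such as meristems, young leaves and root tips, and many of them are known targets of E2F transcription factors.

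Values are in normalised reads, and a gene was called changed when limma found it different in 1 direction from Col-0_1 and from Col-0_2, with the larger p-value adjusted by the Benjamini-Hochberg method over 25085 genes and compared with 0.05. Fold changes are differences in log2(value + 1) from the average of the 2 wild-type sets, with their SE. Library sums lay between 44049333 and 49934976. OBE1 checked the label of its group, at 11.1 ± 4.66 normalised reads (SD, n = 3) where the wild-type sets had 2194 ± 161 and 2546 ± 109, while OBE2 was still at 1811 ± 75.8 and its wild-type values were 3813 ± 111 and 4279 ± 128. Among the 5 WRKY genes mutated in both WRKY groups, WRKY17 was at 184 ± 19.4 in wrky-qm and 411 ± 56.5 in wrky-qm_15_hz, below 1028 ± 94.9 and 849 ± 33.3 in wild type. WRKY39 was also lower than wild type in both groups and WRKY21 in wrky-qm, while WRKY7 and WRKY11 were higher than wild type in both, so transcript levels go with the label for some of the 5 genes and not for others. WRKY15 was at 2637 ± 69.1 in wrky-qm_15_hz and 3129 ± 132 in wrky-qm, above 795 ± 85.7 and 1006 ± 68.9 in wild type. Its transcript level therefore does not check the heterozygous label. Zeros were stored as tiny positive numbers in 86% to 100% of cases in the Col-0_1 and wrky-qm libraries and in 0% in the other 9 libraries, which sets these 2 groups apart in how the authors' table was made.

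All 10 genes passed the filter on low values. None was called higher in a mutant, while wrky-qm had 15.5% of all genes tested called higher, wrky-qm_15_hz 26.5% and obe1-2 29.2%. In wrky-qm 7 of 10 fell, where 11.4% of all genes were called lower. In wrky-qm_15_hz 10 of 10 fell, against 27.4% of all genes, and in obe1-2 9 of 10 fell, against 32.5%. Every library of the mutant lay below all 6 wild-type libraries for 8 of 10 genes in wrky-qm (16% of all genes), 10 of 10 in wrky-qm_15_hz (28.3%) and 9 of 10 in obe1-2 (33%). The median log2 fold change of the 10 genes was -0.48 in wrky-qm, -0.83 with wrky15 heterozygous as well and -1.03 in obe1-2, while the medians of all genes tested were 0.00, -0.04 and -0.08. In whole seedlings, fewer cells that express these genes and less RNA per cell cannot be told apart.

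**Figure D1:**
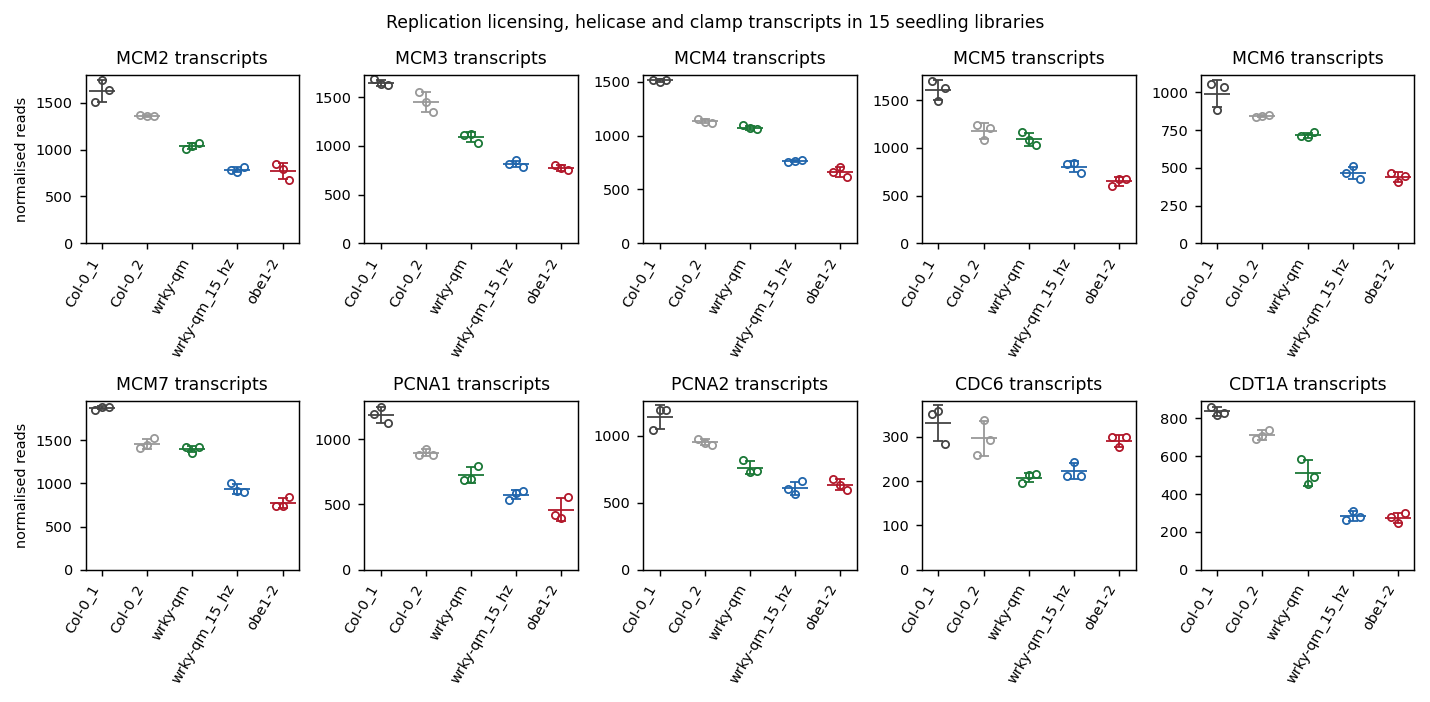
Normalised reads (linear axis from 0) of the 10 genes in each of the 15 libraries, by group. Open circles are libraries, and the dash and bar are the mean and SD of 3. MCM2 steps down from at least 1358 in both wild-type sets to at most 844 in obe1-2, while CDC6 in obe1-2 stays within its wild-type range.

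The promoters of the MCM genes are shown because 5 of the 6 share a binding motif of the E2F factors. Sequence was read by locus from the RefSeq assembly TAIR10.1, whose 5 nuclear chromosomes have the lengths of the TAIR10 build named in the submitters' notes. The window ran from 250 bases before to 50 bases after the annotated start of each gene. It was searched on both strands for the E2F letters TTTCCCGC, TTTGGCGC, TTTCGCGC and TTTGCCGC. In the genes shown no E2F match overlapped another motif searched. Only exact matches to these strings were counted, so related letters that were not searched stay unmarked, and a window without a match may hold them. The motif in these exact letters was found in MCM2, MCM3, MCM4, MCM5 and MCM6, and not in this window of MCM7, PCNA1, PCNA2, CDC6 or CDT1A. It therefore stood in 5 of 10 windows (50%), against 1.76% of the windows of 27443 protein-coding nuclear genes and 31.4% of those of 51 other replication genes. Each site is written 5′ to 3′ on the gene's strand with the E2F letters in capitals, in the orientation given above or its reverse complement, and 10 bases on either side.
MCM2 (chr1:16970190-16970217, + strand): ggcgccaataTTTCCCGCctaatcgacg
MCM3 (chr5:18773859-18773886, - strand): gaaatcaaacGCGCCAAAcaagcgcgta
MCM4 (chr2:7130747-7130774, - strand): agtaataatgGCGCCAAAatcaagtgaa
MCM5 (chr2:3527502-3527529, - strand): ggcccatcagTTTCCCGCcacattgttc
MCM6 (chr5:18010696-18010723, - strand): atactttttaGCGGGAAAatgttagagg
The first base of the motif lay 14 bases before the start in MCM2, 19 in MCM5, 35 in MCM4, 46 in MCM6 and 170 in MCM3. A match of letters is a description and not a measured binding site.

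A second short motif, site II (TGGGCC or TGGGCT, both strands), known from promoters of plant genes that are active in dividing cells, stood in 7 of 10 windows (70%), against 21.7% of all protein-coding nuclear genes and 45.1% of the other replication genes. MCM2, MCM3 and MCM6 each held 3 copies beside their E2F motif. The last 180 bases before the annotated starts of MCM3 and MCM6 are printed as examples of this arrangement, with E2F and site II letters in capitals.
MCM3 (chr5:18773707-18773886, - strand): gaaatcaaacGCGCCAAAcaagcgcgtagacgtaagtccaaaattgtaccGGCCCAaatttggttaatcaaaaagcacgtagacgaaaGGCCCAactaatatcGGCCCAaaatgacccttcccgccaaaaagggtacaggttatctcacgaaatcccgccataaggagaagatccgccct
MCM6 (chr5:18010668-18010847, - strand): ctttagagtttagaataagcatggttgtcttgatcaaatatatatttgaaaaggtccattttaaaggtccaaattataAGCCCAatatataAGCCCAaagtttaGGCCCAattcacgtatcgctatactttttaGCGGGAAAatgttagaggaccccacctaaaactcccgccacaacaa
The core of the mitosis-specific activator element (AACGG, both strands) was in 3 of 10 windows (30%) against 24.7% of all genes, and in 6 of 8 mitotic and cytokinesis genes (75%). The telo-box (AAACCCTA, both strands) was in 1 of 10 windows, that of PCNA1, against 6.22% of all genes.

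Of the licensing factors, CDT1A (AT2G31270, chr2:13328862-13331831, plus strand of TAIR10.1), which brings the MCM ring to the origin, had the most negative fold change of the 10 genes in all 3 mutants. In wrky-qm its lead over CDC6 was within their SE, and against Col-0_2 alone CDC6 was the lower (-0.50 against -0.49 for CDT1A). Its normalised reads were 863, 821 and 829 in the Col-0_1 libraries and 690.2, 709 and 740.1 in Col-0_2. They were 586, 452 and 490.3 in wrky-qm, 263, 312 and 279 in wrky-qm_15_hz and 278, 247 and 299 in obe1-2. Every mutant library was below every wild-type library, and the wrky-qm libraries lay between wild type and the other mutants without overlap. The log2 fold change was -0.61 ± 0.091 in wrky-qm (limma adjusted p = 0.000901), -1.44 ± 0.091 in wrky-qm_15_hz (5.14e-10) and -1.49 ± 0.091 in obe1-2 (1.61e-10).

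CDC6 (AT2G29680, chr2:12689171-12693121, plus strand), the ATPase that works with CDT1 in loading, did not follow the other 9 genes. Its normalised reads were 352, 359 and 285 in Col-0_1 and 259.7, 338 and 292 in Col-0_2. They were 196, 213 and 215 in wrky-qm, 212, 244 and 211 in wrky-qm_15_hz and 299, 276 and 301 in obe1-2. Both WRKY mutants were below all wild-type libraries, and the obe1-2 libraries lay inside the wild-type range. CDC6 fell in wrky-qm (log2 fold change -0.58 ± 0.12, limma adjusted p = 0.00620) and in wrky-qm_15_hz (-0.49 ± 0.12, 0.0130), the latter call being lost without Col-0_2 replicate 2 (adjusted p = 0.0840) and after quantile normalisation (0.0960). In obe1-2 its log2 fold change was -0.10 ± 0.12 and did not pass (limma adjusted p of 1). Set directly against the WRKY mutants, CDC6 was higher in obe1-2 than in wrky-qm by 0.49 ± 0.13 (limma adjusted p = 0.00280) and than in wrky-qm_15_hz by 0.39 ± 0.13 (0.0200). The second of these calls was lost without obe1-2 replicate 1 or 3 or without wrky-qm_15_hz replicate 1 or 3, at limma adjusted p from 0.0539 to 0.0600.

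Within the helicase, the 6 MCM genes went down together in wrky-qm_15_hz and obe1-2. Summed over MCM2 to MCM7, the libraries held 9158 to 9333 normalised reads in Col-0_1, 7304 to 7581 in Col-0_2, 6349 to 6509 in wrky-qm, 4444 to 4646 in wrky-qm_15_hz and 3998 to 4109 in obe1-2. These ranges do not overlap. MCM2 (AT1G44900, chr1:16970214-16974753, plus strand) had 1512, 1749 and 1634 normalised reads in Col-0_1 and 1376, 1358 and 1359 in Col-0_2. It had 1008, 1037 and 1072 in wrky-qm, 779, 764 and 813 in wrky-qm_15_hz and 844, 796 and 679.8 in obe1-2. Every mutant library was below every wild-type library, and the ranges of wrky-qm_15_hz and obe1-2 overlapped. Its log2 fold changes were -0.52 ± 0.063, -0.92 ± 0.063 and -0.95 ± 0.063 in that order of mutants (largest limma adjusted p = 0.000225).

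MCM3 (AT5G46280) and MCM6 (AT5G44635) moved like MCM2. MCM3 was at 1649 ± 31.6 (SD, n = 3) in Col-0_1, 1449 ± 106 in Col-0_2, 1087 ± 51.5 in wrky-qm and 817 ± 31.9 in wrky-qm_15_hz, with 775 ± 29.2 in obe1-2. MCM6, the MCM gene with the lowest level per kilobase of transcript, was at 991 ± 92, 843 ± 6.07, 715 ± 16.7, 468 ± 40.7 and 438 ± 31.3 in the same order. For both genes no mutant library reached the lowest wild-type library. The log2 fold changes of MCM6 were -0.35 ± 0.074 in wrky-qm (limma adjusted p = 0.0423), -0.97 ± 0.074 in wrky-qm_15_hz (2.11e-08) and -1.06 ± 0.074 in obe1-2 (2.47e-09). The call of MCM6 in wrky-qm was close to the threshold: it was lost without Col-0_1 replicate 3, any 1 wrky-qm library or any 1 Col-0_2 library, at limma adjusted p from 0.0516 to 0.113 and without the intensity trend (0.0504).

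MCM4, MCM5 and MCM7 did not pass in wrky-qm, where their levels were near those of Col-0_2. MCM4 (AT2G16440, chr2:7126279-7130729, minus strand) had 1519, 1499.9 and 1514 normalised reads in Col-0_1, 1156, 1130.1 and 1119 in the other wild-type set and 1094, 1067 and 1059 in wrky-qm. It had 755, 762 and 776 in wrky-qm_15_hz and 662, 711 and 613 in obe1-2. MCM7 (AT4G02060, chr4:900636-905591, plus strand) had 1859, 1892 and 1892 in Col-0_1, 1415, 1442 and 1528 in the other wild-type set and 1418, 1356 and 1428 in wrky-qm. In MCM7 the ranges of wrky-qm and Col-0_2 overlapped, while in MCM4 all 3 wrky-qm libraries were below both wild-type sets by a small margin. MCM7 had 1005, 913 and 901 in wrky-qm_15_hz and 735, 736 and 842 in obe1-2, and the obe1-2 libraries were below all others.

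Against Col-0_1 alone, the log2 fold changes in wrky-qm were -0.49 for MCM4, -0.56 for MCM5 (AT2G07690) and -0.43 for MCM7 (largest limma adjusted p = 1.09e-05). Against Col-0_2 alone they were -0.08, -0.11 and -0.06 (smallest limma adjusted p = 0.287). Counted over the 10 genes, 10 were lower in wrky-qm against Col-0_1 alone (18.4% of all genes) and 7 against Col-0_2 alone (19.4%). In wrky-qm_15_hz the counts were 10 (33.9%) and 10 (31.3%) and in obe1-2 9 (37.6%) and 9 (36.1%), so for these mutants the calls did not turn on the wild-type set. Their falls were large for the same 3 genes: -0.78 ± 0.052, -0.77 ± 0.067 and -0.82 ± 0.055 in wrky-qm_15_hz and -0.99 ± 0.052, -1.08 ± 0.067 and -1.11 ± 0.055 in obe1-2 (log2, largest limma adjusted p = 2.90e-06).

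**Figure D2:**
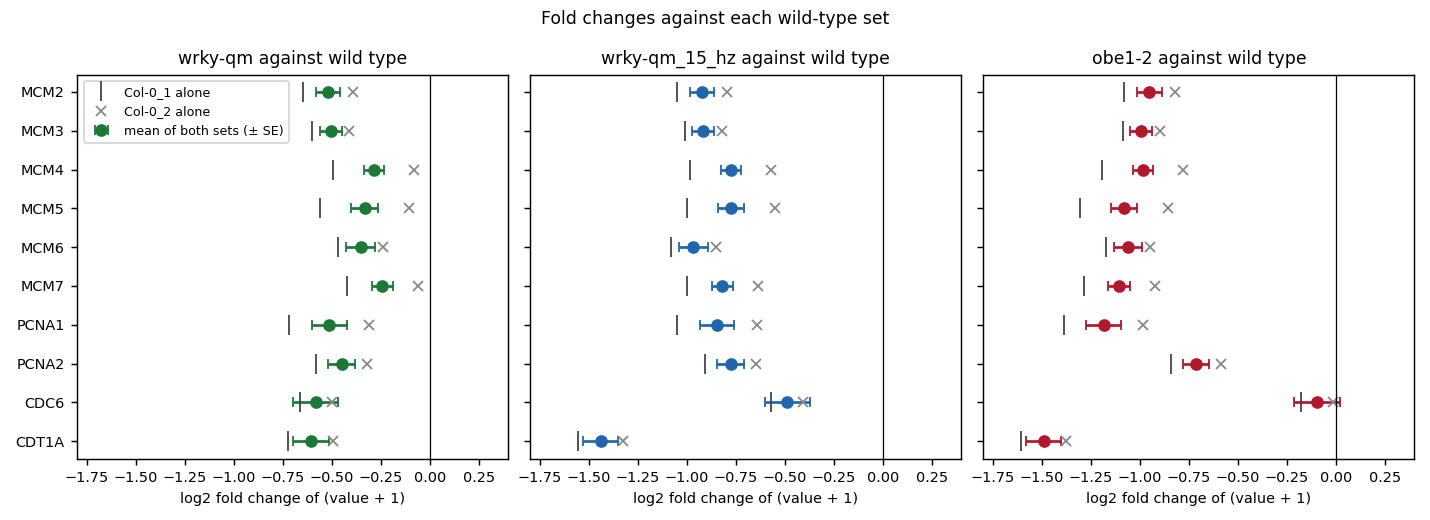
Log2 fold changes of the 10 genes in each mutant, with the SE, against the average of both wild-type sets (points) and against each set alone (ticks and crosses). All points for wrky-qm_15_hz lie between -1.44 and -0.49, and in obe1-2 CDC6 at -0.10 stands apart from the other 9.

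Within the ring, levels were compared per kilobase of transcript. MCM7 was highest and MCM6 lowest in every group, at 722 ± 7.37 and 366 ± 34 normalised reads per kilobase in Col-0_1 and 296 ± 23.7 and 162 ± 11.6 in obe1-2 (SD, n = 3). The ratio of highest to lowest was between 1.8 and 2.09 in the 5 groups. The order of the 4 genes between them was the same in Col-0_1 and wrky-qm_15_hz and differed in the other groups. In obe1-2 MCM3 was near MCM7, at 289 ± 10.9 (SD, n = 3), with MCM2, MCM5 and MCM4 at 245, 241 and 231. MCM7 shares 437 bases with AT4G02050 on the opposite strand, and without a stated strand setting reads of the shared stretch cannot be assigned. That neighbour went the other way, from 1133 ± 38.1 (SD, n = 3) in Col-0_1 to 3668 ± 17.0 in obe1-2.

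PCNA1 (AT1G07370, chr1:2263037-2264553, plus strand) and PCNA2 (AT2G29570, chr2:12649906-12651753, minus strand) encode the same clamp, and both fell in all 3 mutants. PCNA1 had 1190.0, 1249 and 1126 normalised reads in Col-0_1 and 879, 928 and 881 in Col-0_2. It had 685, 692 and 793 in wrky-qm, 534, 586 and 599.8 in wrky-qm_15_hz and 417, 399 and 558 in obe1-2. All mutant libraries were below all wild-type libraries, and obe1-2 replicate 3 was higher than its group and within the range of wrky-qm_15_hz. The log2 fold changes of PCNA1 were -0.51 ± 0.088 (limma adjusted p = 0.0255), -0.85 ± 0.088 (1.29e-05) and -1.19 ± 0.088 (2.21e-08). In wrky-qm the call was lost without wrky-qm replicate 1 or 2 or any 1 Col-0_2 library (limma adjusted p from 0.0513 to 0.105) and without the intensity trend (0.0680).

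PCNA2 had 1042, 1195 and 1191 normalised reads in Col-0_1 and 979, 948 and 934 in Col-0_2. It had 817, 731 and 741 in wrky-qm, 600.1, 566 and 661 in wrky-qm_15_hz and 676, 635 and 598 in obe1-2. No mutant library reached the wild-type range, and the ranges of wrky-qm_15_hz and obe1-2 overlapped. Its log2 fold changes were -0.45 ± 0.068, -0.78 ± 0.068 and -0.71 ± 0.068 (largest limma adjusted p = 0.00313). PCNA2 overlaps AT2G29560 on the opposite strand by 279 bases, and reads of this stretch cannot be assigned either. That neighbour was at 1729 ± 21.8 and 1713 ± 38.4 (SD, n = 3) in the wild-type sets and 1412 ± 51.4 in wrky-qm. It was at 1909 ± 25 in wrky-qm_15_hz and 2238 ± 207 in obe1-2. CDC6 overlaps AT2G29679 by 123 bases, a gene listed at 0 in every group.

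Because several of these proteins are encoded by a pair of related genes, the balance within pairs was compared, a choice made after the values were seen. Coding sequences of PCNA1 and PCNA2 were 85.6% identical with a longest shared transcript stretch of 41 bases, those of CDT1A and CDT1B 65.1% identical with 11 bases, and those of CDC6 and the CDC6-like gene AT1G07270 80.1% identical with 54 bases. Reads within shared stretches could be split between partners by the authors' counting. CDT1A was the higher partner, at 838 ± 22 and 713 ± 25.2 normalised reads in the wild-type sets against 408 ± 11.2 and 312 ± 25.2 for CDT1B (AT3G54710).

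In wrky-qm CDT1B stood at 384 ± 24.1 (SD, n = 3) with a log2 fold change of 0.11 ± 0.14 that did not pass (limma adjusted p of 1), while CDT1A fell. In wrky-qm_15_hz it fell by nearly as much as CDT1A, to 138 ± 23.2 (log2 fold change -1.37 ± 0.14, limma adjusted p = 2.71e-06). In obe1-2 it fell further than CDT1A, to 47.3 ± 8.97 (-2.91 ± 0.14, 3.78e-12). The log2 ratio of CDT1A to CDT1B was 1.04 ± 0.032 (SD, n = 3) in Col-0_1 and 1.19 ± 0.065 in Col-0_2, against 0.40 ± 0.11 in wrky-qm. In wrky-qm_15_hz it was 1.05 ± 0.18, and the obe1-2 libraries had 2.53 ± 0.33. The ratio was below all 6 wild-type libraries in 3 of 3 wrky-qm libraries and above all of them in 3 of 3 obe1-2 libraries.

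Tested with a two-sided exact permutation test of 3 libraries against 6, the ratio of CDT1A to CDT1B differed from wild type by -0.72 in wrky-qm and by 1.41 in obe1-2 (p = 0.0238 for each, the smallest this design allows). After Benjamini-Hochberg adjustment over the 12 ratio tests neither permutation test passed (adjusted p = 0.143). At this smallest p, a ratio could pass only if several of the 12 tests also reached it. The adjusted permutation p therefore cannot decide whether a single ratio changed. The ratio of PCNA1 to PCNA2 differed by -0.47 in obe1-2 on the log2 scale (exact permutation p = 0.0476, adjusted p = 0.143), with 2 of 3 libraries below wild type. The ratio of CDC6 to AT1G07270 was 0.69 higher in obe1-2 (exact permutation p = 0.0476, adjusted p = 0.143), with 2 of 3 libraries above. The pair ORC1A and ORC1B, 91.8% identical over 2404 aligned coding bases, gave ratio differences that did not pass in any mutant (smallest exact permutation p = 0.167).

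**Figure D3:**
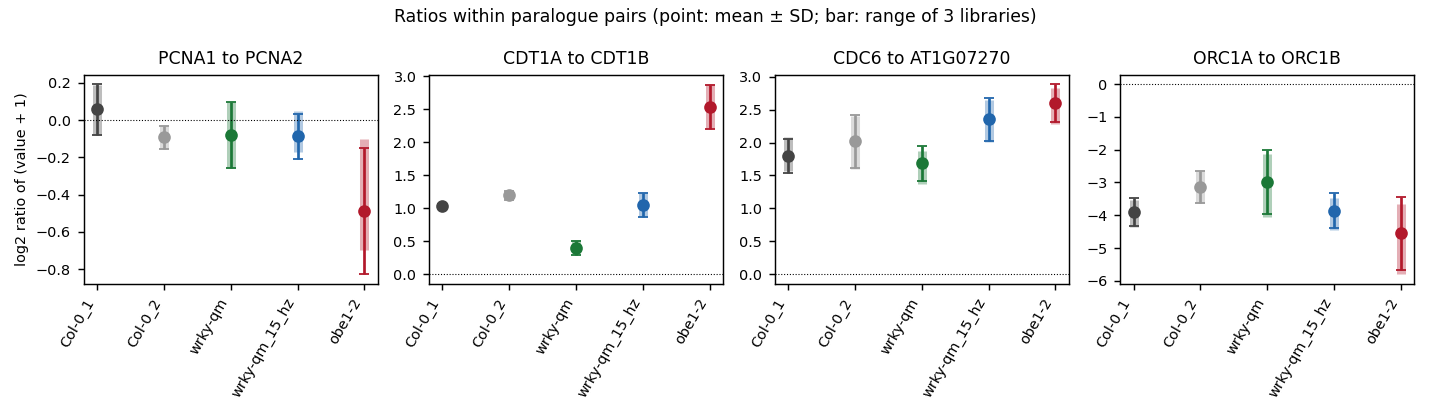
Log2 ratios of (value + 1) within 4 pairs of related genes, by group. Points and whiskers are means and SD of 3 libraries and thick bars their range. The ratio of CDT1A to CDT1B is 0.40 in wrky-qm and 2.53 in obe1-2, on either side of 1.04 and 1.19 in the wild-type sets.

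The rest of the replication machinery was followed in 51 other genes, from origin recognition to the E2F, DP and retinoblastoma-related regulators. In wrky-qm 12 fell and 1 rose (median log2 fold change -0.22), in wrky-qm_15_hz 30 fell and 1 rose (-0.47), and in obe1-2 29 fell and 4 rose (-0.53). Of all genes tested, 11.4%, 27.4% and 32.5% were called lower and 15.5%, 26.5% and 29.2% higher in that order of mutants. Short lists whose counts lie near these shares carry no result of their own. The wrky-qm count depended on the rule: 13 of 51 changed against both sets, 26 against Col-0_1 alone and 21 against Col-0_2 alone. Of all 25085 genes, 6743, 10126 and 10549 changed in that order, so the rise was not particular to replication genes. Among the 10 origin and licensing genes, 3 fell in wrky-qm, 6 fell and 1 rose in wrky-qm_15_hz, and 6 fell and 1 rose in obe1-2. ORC1B, ORC2 and ORC6, subunits of the origin recognition complex, fell in wrky-qm by 0.77, 0.95 and 0.88 on the log2 scale. ORC6 did not pass in the other mutants, at 0.01 ± 0.16 and 0.16 ± 0.16. The gene that rose in both was GEM, whose product is known to bind CDT1, at 0.34 ± 0.077 (limma adjusted p = 0.00549, and 0.0559 without wrky-qm_15_hz replicate 2) and 0.51 ± 0.077 (7.88e-05).

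Helicase activation genes included CDC45, a subunit of the working helicase. It fell in all 3 mutants, from 358 ± 4.44 and 300.2 ± 10.2 normalised reads (SD, n = 3) in the wild-type sets to 224 ± 12.4, 205 ± 30.5 and 144 ± 27.7. In wrky-qm its limma adjusted p was 0.0395 and the call was lost without any 1 of the 9 libraries of wrky-qm and the wild-type sets. MCM10 and ETG1, which act beside the MCM ring, fell in wrky-qm_15_hz (log2 fold changes -0.94 ± 0.14 and -0.51 ± 0.077) and in obe1-2 (-0.88 ± 0.14 and -0.75 ± 0.077). After quantile normalisation MCM10 in obe1-2 was at -0.47 and no longer passed (limma adjusted p = 0.202). In all, 1 of 7 such genes fell in wrky-qm (11.4% of all genes), 4 fell in wrky-qm_15_hz (27.4%) and 3 fell in obe1-2 (32.5%).

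Of 10 genes for subunits of the replicative DNA polymerases, 2 fell in wrky-qm (11.4% of all genes), 8 fell in wrky-qm_15_hz (27.4%) and 7 fell in obe1-2 (32.5%). ICU2, the catalytic subunit of DNA polymerase alpha, and POL2A, that of polymerase epsilon, had log2 fold changes of -0.61 ± 0.065 and -0.54 ± 0.082 in wrky-qm_15_hz and of -1.14 ± 0.065 and -1.25 ± 0.082 in obe1-2 (largest limma adjusted p = 0.000320). In wrky-qm they were at -0.28 ± 0.065 and -0.22 ± 0.082 and did not pass. The 14 genes for the clamp loader, the single-strand binding protein RPA and DNA maturation had 4 falls and 1 rise in wrky-qm, 8 falls in wrky-qm_15_hz and 9 in obe1-2. The same shares of all genes apply, with 15.5% called higher in wrky-qm. RPA1D, a large RPA subunit, fell by similar amounts in all 3 mutants: -0.82 ± 0.075, -0.79 ± 0.075 and -0.77 ± 0.075. RPA1A, named because it was the lone rise and chosen after its values were seen, had 0.28 ± 0.076 in wrky-qm (limma adjusted p = 0.0248). Its call was lost after quantile normalisation (0.116) and without Col-0_1 replicate 2, wrky-qm replicate 2 or Col-0_2 replicate 3 (limma adjusted p from 0.0768 to 0.127). The DNA ligase gene LIG1 fell in wrky-qm_15_hz (-0.62 ± 0.043) and obe1-2 (-0.74 ± 0.043), while in wrky-qm it was at 0.01 ± 0.043 and did not pass. In wrky-qm LIG1 was lower against Col-0_1 alone (-0.129, limma adjusted p = 0.0451) and higher against Col-0_2 alone (0.148, 0.0208).

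Ribonucleotide reductase makes the DNA building blocks from a large and a small subunit, and its genes parted in obe1-2. RNR1, the large subunit, fell from 4861 ± 109 and 4154 ± 159 normalised reads in the wild-type sets to 2693 ± 107 in obe1-2 (log2 fold change -0.74 ± 0.038, limma adjusted p = 4.17e-11). TSO2, a small subunit, rose from 4656 ± 49.3 and 3855 ± 139.6 to 7229 ± 369 (0.77 ± 0.039, 6.08e-11). RNR2A, also a small subunit, did not pass in obe1-2, at 990.1 ± 50.2 where the wild-type sets had 1178 ± 99 and 920.5 ± 47.1. Of the 7 E2F, DP and RBR genes, 1 fell in wrky-qm (11.4% of all genes) and 3 fell in wrky-qm_15_hz (27.4%). In obe1-2 3 fell and 2 rose, where 32.5% of all genes were called lower and 29.2% higher. RBR1, the retinoblastoma-related repressor of E2F factors, fell in wrky-qm_15_hz and obe1-2 (-0.48 ± 0.043 and -0.52 ± 0.043). DPA, a partner of E2F proteins, and E2FC, known as a repressor, rose in obe1-2 by 0.77 ± 0.1 and 0.45 ± 0.082 (largest limma adjusted p = 0.00123). E2FC was the gene that fell in wrky-qm (-0.35 ± 0.082, limma adjusted p = 0.0263), a call lost without wrky-qm replicate 3 or Col-0_2 replicate 2 or 3 (0.101 to 0.120). The other falls in obe1-2 were those of E2FA, an activating E2F, and DEL1, an E2F-like repressor (-0.66 ± 0.13 and -0.80 ± 0.14, larger limma adjusted p = 0.0171), and neither passed after quantile normalisation (-0.32 and -0.29, smaller adjusted p = 0.808). The E2FA call was also lost without Col-0_2 replicate 2 or 3 or obe1-2 replicate 2 or 3 (limma adjusted p from 0.0503 to 0.0866).

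Genes of mitosis and cytokinesis gave another pattern than the 10 replication genes. None of 8 changed in wrky-qm by limma, none at an unadjusted p under 0.05, and their median log2 fold change was 0.08. Of all genes, 11.4% were called lower and 15.5% higher in wrky-qm. Against Col-0_2 alone 2 of the 8 were higher there, as were 5685 of all 25085 genes. In wrky-qm_15_hz 8 of 8 fell (27.4% of all genes), with a median of -1.50. In obe1-2 8 of 8 fell (32.5% of all genes), with a median of -2.67 and a range from -3.27 to -2.38. KNOLLE, which encodes a syntaxin of the forming cell plate, was at 1223 ± 77.6 and 1020.4 ± 73.6 in the wild-type sets and 1195 ± 16.5 in wrky-qm, and fell to 353 ± 14 in wrky-qm_15_hz and 115 ± 3.8 in obe1-2. Between these 2 mutants all 8 mitotic genes were lower in obe1-2, by log2 differences from -1.61 to -1.03 (largest limma adjusted p = 0.00171), where 26.1% of all genes were called lower and 20.3% higher. Of the 10 replication genes, 4 were lower in that contrast, 1 was higher and 5 did not pass.

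**Figure D4:**
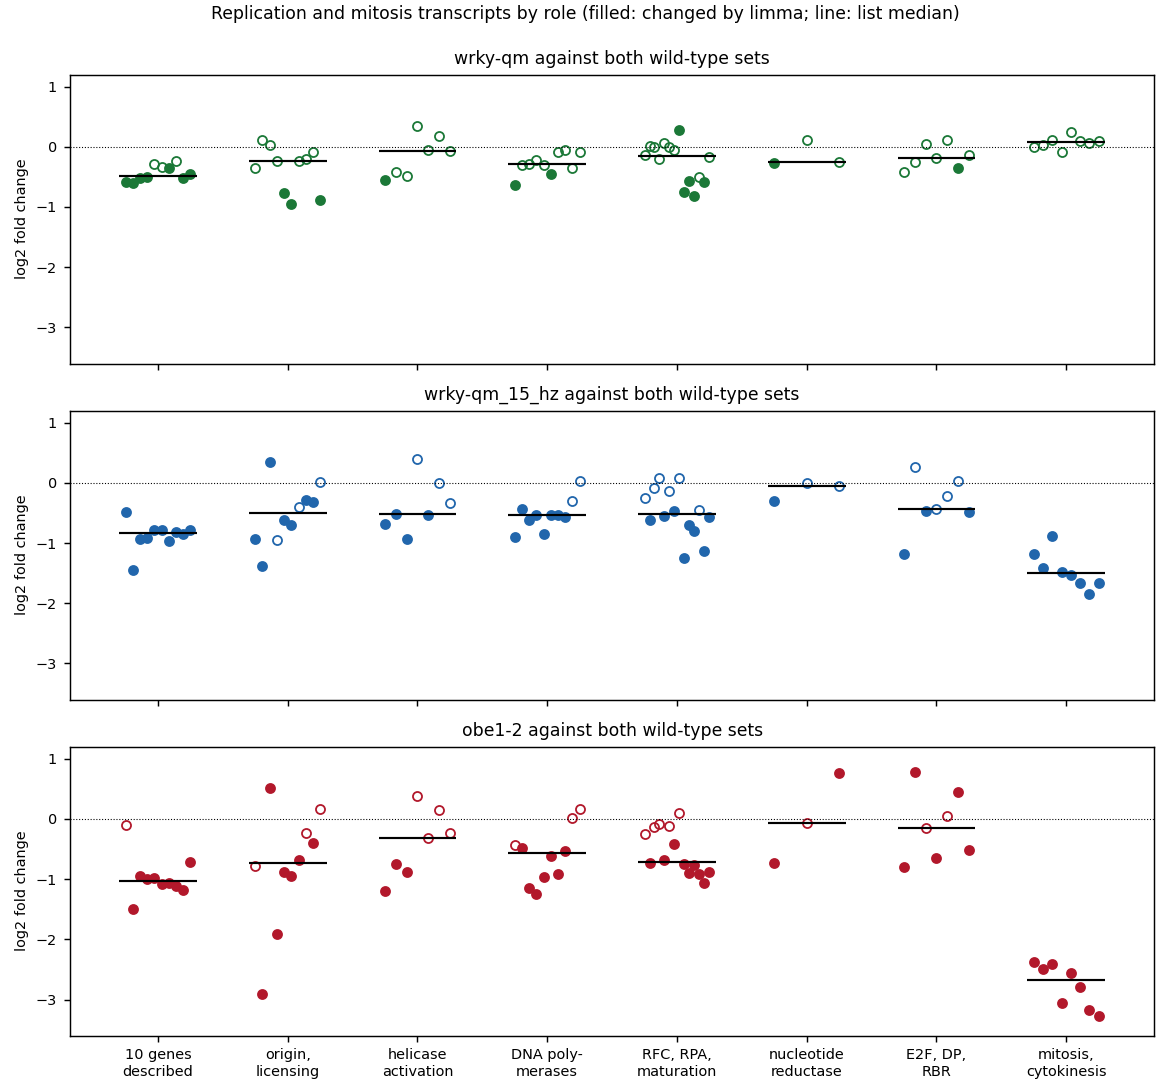
Log2 fold changes of single genes in each mutant by role, against the average of both wild-type sets. Filled circles are changed by limma, open circles did not pass, and lines are list medians. The 8 mitosis and cytokinesis genes have medians of 0.08, -1.50 and -2.67, and the 10 described genes -0.48, -0.83 and -1.03.

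The mutants were then set against each other. In wrky-qm_15_hz 9 of 10 genes were lower than in wrky-qm, where 34.9% of all genes were called lower, with a median difference of -0.43 against -0.07 for all genes. CDT1A had the largest difference (-0.83 ± 0.1) and PCNA2 the smallest of the 9 (-0.33 ± 0.079, limma adjusted p = 0.00107). CDC6 did not pass, at 0.09 ± 0.13 (limma adjusted p = 0.558), and passed as higher after quantile normalisation (0.35, adjusted p = 0.0330). In obe1-2 9 genes were lower than in wrky-qm and CDC6 was higher, where 38.9% of all genes were called lower and 31.1% higher. In that contrast MCM7 (-0.86 ± 0.063) and CDT1A (-0.88 ± 0.1) differed most among the lower genes. These contrasts cross the split in how zeros were stored, in which wrky-qm goes with Col-0_1 and the other mutants go with Col-0_2. Against the wild-type set stored alike, the median log2 fold change of the 10 genes was -0.59 in wrky-qm, -0.65 for wrky-qm_15_hz and -0.88 for obe1-2. Part of the difference between mutants therefore cannot be told apart from that between these 2 sets of libraries.

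Between obe1-2 and wrky-qm_15_hz the differences were smaller. MCM4 (-0.21 ± 0.06), MCM5 (-0.31 ± 0.077), MCM7 (-0.29 ± 0.063) and PCNA1 (-0.34 ± 0.1) were lower in obe1-2 (largest limma adjusted p = 0.00910). The call of PCNA1 was lost without obe1-2 replicate 1 (0.0529) or replicate 2 (0.0671), and that of MCM4 when only these 2 groups were fitted (0.0536). MCM2, MCM3, MCM6, PCNA2 and CDT1A did not pass, at log2 differences between -0.09 and 0.06.

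The wild-type sets also differed from each other. In Col-0_2 7 of 10 were lower than in Col-0_1, where 9.52% of all genes were called lower, with a median difference of -0.26 against 0.00 for all genes. MCM5 differed most (-0.45 ± 0.077, limma adjusted p = 0.000138), followed by MCM4 (-0.41 ± 0.06) and PCNA1 (-0.41 ± 0.1). MCM6, CDC6 and CDT1A did not pass. The calls of MCM4, MCM5, MCM7 and PCNA1 held without any single library. Those of MCM2, MCM3 and PCNA2 did not: MCM2 was lost without Col-0_1 replicate 2, MCM3 without any 1 Col-0_1 library or Col-0_2 replicate 2 or 3, and PCNA2 without replicate 2 or 3 of either set (limma adjusted p from 0.0583 to 0.184). In wrky-qm, the median of the 10 genes was -0.59 against Col-0_1 and -0.32 against Col-0_2.

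Many markers of shoot and root tissue also fell in wrky-qm_15_hz and obe1-2, while some did not, and seed markers went another way. Of all genes, 11.4%, 27.4% and 32.5% were called lower in wrky-qm, wrky-qm_15_hz and obe1-2, and 15.5%, 26.5% and 29.2% higher. The summed normalised reads of 4 shoot meristem markers (STM, CLV3, WUS and ANT) were 1278 to 1363 in Col-0_1, 867 to 980.4 in Col-0_2, 1234 to 1330.4 in wrky-qm, 226 to 336 in wrky-qm_15_hz and 66.2 to 101 in obe1-2. WUS was listed at 0 in every group and CLV3 in Col-0_2, wrky-qm and wrky-qm_15_hz. Of the 3 that could be tested, 0 changed in wrky-qm, 2 fell in wrky-qm_15_hz, and in obe1-2 2 fell and CLV3 was called higher. CLV3 was near the floor, at 2.3 to 14.6 normalised reads in obe1-2 and 0 to 3.8 in Col-0_1, and these ranges overlap. Root meristem markers (PLT1, PLT2, WOX5 and SHR) summed to 897 to 1087 and 767 to 826 in the wild-type sets, 599 to 677 in wrky-qm, 373 to 424 in wrky-qm_15_hz and 422 to 571 in obe1-2, with PLT2 listed at 0 in wrky-qm_15_hz and PLT1 and PLT2 in obe1-2. Of these 4, 1 fell in wrky-qm (SHR) and 3 in each of the other mutants.

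Green shoot markers (RBCS1A, LHCB1.3, LHCB2.1 and CA1) summed to between 1320467 and 1462297 in the wild-type libraries, 1400062 to 1441834 in wrky-qm, 947106 to 1022722 in wrky-qm_15_hz and 538069 to 575398 in obe1-2. All 4 fell in wrky-qm_15_hz and obe1-2, and in wrky-qm LHCB2.1 rose. Differentiated root markers (CASP1, CASP2, PRP3 and COBL9) had 3 falls in wrky-qm, 4 falls in wrky-qm_15_hz and 3 falls in obe1-2, with sums of 3219 to 3757, 2086 to 2153, 862 to 953 and 1575 to 1749.9 in wild type and these mutants. Seed markers (CRA1, CRC, SESA3 and OLEO1) rose 4 of 4 in both WRKY mutants, with sums of 17.2 to 23.3 in Col-0_1, 365 to 475 in Col-0_2, 9047 to 9423 in wrky-qm and 26239 to 28063 in wrky-qm_15_hz, and none passed in obe1-2 (26.6 to 77.7). In wrky-qm the mitotic genes and the shoot meristem markers did not pass, while the root markers SHR (-0.50 ± 0.094), CASP2 (-0.48 ± 0.13), PRP3 (-1.31 ± 0.11) and COBL9 (-1.50 ± 0.23) fell. The root markers PLT1 (-0.82 ± 0.33), PLT2 (-0.98 ± 0.38), CASP1 (-0.18 ± 0.064) and WOX5 (0.38 ± 0.28) did not pass there. The part of tissue makeup in the falls was not tested.

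Over the 15 libraries the 6 MCM genes varied together, with Pearson correlations between 0.91 and 0.979 in their 15 pairs. CDC6 had correlations between 0.264 and 0.525 with the other 9 genes. These values describe libraries that share 5 groups, and carry no test. The genes whose log2 values followed the mean of the standardised 10 genes most closely, of 18770 with a mean of at least 50, were AT1G19740 (0.988), the A-type cyclin gene CYCA3;1 (0.986), AT3G17170 (0.986), AT4G11175 (0.981), CYP38 (0.981), AT1G62780 (0.981), GPRI1 (0.979) and EMB2777 (0.979). CYCA3;1 had 271 normalised reads on average in Col-0_1, 226 in Col-0_2, 172 in wrky-qm and 127 in wrky-qm_15_hz, with 119 in obe1-2. CYP38, which encodes a thylakoid lumen protein of photosystem II assembly, had 12121, 11044, 9102, 7361 and 6491 in that order.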

How the data were processed

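RNA was extracted with TRIzol, per the labels, and sequenced on a NovaSeq instrument as paired reads of 150 bases. The submitters' processing notes name bcl2fastq, HISAT2, edgeR and the TAIR10 build. Versions, roles, strand setting and annotation are not given in the sources used here. The deposited values are a normalised signal per gene and library made by the authors, in a unit that no source states. They are not whole numbers, are never negative, and behave like read counts scaled to a common library size, so they are called normalised reads. No raw counts or depth could be recovered, and counting intervals are not given.

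Values under 1e-06 were treated as 0. Of 32548 genes, the 25085 that averaged 1 or more in some group were tested, and log2(value + 1) was fitted with limma 3.58.1 in R 4.3.3 with an intensity trend, 5 groups and all 15 libraries, a procedure first tested on simulated data. The log scale with a pseudocount of 1 understates changes of low genes. Each mutant was tested against Col-0_1 and against Col-0_2. The p-value adjusted over all genes tested was the larger of both, set to 1 where the directions differed. Contrasts between mutants and between wild-type sets used 1 test each. The mutants share their controls, so their calls are not independent of each other. Ratios within gene pairs were tested by exact permutation (scipy 1.17.1). None of the 105 pairs of libraries held identical values, and replicates of a group differed by a median of 0.088 to 0.132 on the log2 scale. The replicate numbers did not pair samples: correlations of same-numbered libraries ran from -0.098 to 0.05 in 30 pairs.

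Loci of all 10 genes matched the RefSeq annotation of TAIR10.1, from which coordinates and sequences were read. The 10 genes, the gene lists (written from knowledge of gene function) and the tests were chosen with earlier results of these data known. Named beside the 10 genes are up to 4 changed genes of smallest p per list and mutant, genes listed at 0 in a group and the 8 most similar genes. Alternatives were other pseudocounts, filters, scalings (TMM, median ratio, quantile), no trend, a replicate block, each wild-type set alone, only the groups compared, and each library left out.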

Additional observations from a re-analysis of the deposited data

How the results depend on the processing

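No fold change of the 10 genes that passed changed its sign under the 28 alternatives run, which leave out each of 15 libraries or change 1 setting. With each library left out in turn, 5 to 7 of the 10 genes were changed in wrky-qm, 9 to 10 in wrky-qm_15_hz, 9 to 9 in obe1-2, 9 to 9 between wrky-qm_15_hz and wrky-qm, 10 to 10 between obe1-2 and wrky-qm, 3 to 5 between obe1-2 and wrky-qm_15_hz (3 without obe1-2 replicate 1, 5 with all libraries), and 5 to 8 between the wild-type sets. The 13 changed genes among the 51 other replication genes in wrky-qm became 21 after quantile normalisation, 26 against Col-0_1 alone, 21 against Col-0_2 alone and 25 against the average of both sets in 1 test, and 9 to 14 with a library left out. Over all 25085 genes, 6743 changed in wrky-qm became 7772 after quantile normalisation, 10126 against Col-0_1 alone and 10549 against Col-0_2 alone. LIG1 in wrky-qm was -0.129 against Col-0_1 alone (limma adjusted p = 0.0451) and 0.148 against Col-0_2 alone (0.0208). Against the average of both sets it was 0.010. RNR2A in wrky-qm_15_hz was at -0.174 (0.0458), 0.179 (0.0427) and 0.003 in that order. Both values near 0 average differences of opposite sign from the wild-type sets. The average of both sets also called MCM4, MCM5 and MCM7 in wrky-qm, at limma adjusted p of 0.000110, 0.000299 and 0.000949, and quantile normalisation called MCM4 (0.0453). The cause of these differences was not tested.

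Quantile normalisation moved the median of all genes between obe1-2 and wrky-qm by 0.14, from -0.12 to 0.03, and that of the 10 genes from -0.69 to -0.54. It also turned the split of calls in wrky-qm from 57.6% higher to 42.4% higher, with 8 of the 10 genes lower in place of 7. With the replicate number as a block, 6 of the 10 genes were changed in wrky-qm, all 10 with wrky15 heterozygous as well and 9 in obe1-2, the lost call being MCM6, and no other call of the 10 genes changed. All 156 alternatives for the ratios within gene pairs, chosen after seeing the data, moved the difference from wild type by less than an SD. That SD was the larger of the mutant's and that of both wild-type sets pooled, which includes the difference between these sets. No p-value was computed for these alternatives. Depth is unknown, so the limits for low genes such as ORC1A could not be set.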
